A study of Homo sapiens with 24 samples.

Results

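Replication-dependent histone genes are the genes named HIST1H to HIST4H that encode the histones H1, H2A, H2B, H3 and H4. They were followed in PPC1, a prostate cancer cell line, and in the polyploid giant cancer cells (PGCC) derived from it. The members were all protein-coding genes of the count table whose symbol begins with HIST1H, HIST2H, HIST3H or HIST4H, which gave 70 of 48162 listed genes. A further 19 genes with such symbols were listed as another gene type and were left out. Of the 70 members, 6 encode H1, 17 encode H2A, 18 encode H2B, 14 encode H3 and 15 encode H4. On the hg19 coordinates of the table, 55 lie on chromosome 6, 14 on chromosome 1 and 1 on chromosome 12. The group was chosen by gene name, but with measured values of PGCC against UT in view, in which HIST1H2BC was among the largest rises. The values of that contrast were thus used for the choice and are given as a description with no test.

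RNA was sequenced from 4 conditions with 6 libraries each, 24 in all. UT were parental PPC1 cells, neither irradiated nor filtered, and UT_LCL were parental cells given 5 µM LCL521 for 5 h before harvest. LCL521 inhibits acid ceramidase (ASAH1). PGCC came from plates that received 8 Gy of radiation on day 2, and the cells held back by a 20 micron strainer at harvest on day 5 were kept. PGCC_LCL were made in the same way and given 5 µM LCL521 for 5 h. The experiment was done 6 times with all 4 conditions harvested in parallel. Only the PGCC were strained, so irradiation and selection by size cannot be told apart. The libraries held 14835246 to 19906601 gene counts each. Levels are given in CPM, the counts of a gene relative to the scaled size of its library, and a floor of 3 counts in a library corresponded to 0.151 to 0.202 CPM and covers counting error only. Replicates 4 and 5 stood apart from the other 4 rounds. On the second principal component of 12845 genes, which held 20.0% of the variance, their 8 libraries scored 11.2 to 43.5 and the other 16 scored -26.7 to -3.18, so results that rest on them are given with and without them.

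As to the cell type, the keratins KRT8, KRT18 and KRT19 were present in every library, with a highest KRT19 level of 1123 CPM in PGCC. In PGCC_LCL against UT_LCL, KRT8 rose by 1.51 on the log2 scale and KRT19 by 0.38, while KRT18 fell by 0.38. Their adjusted p was 7.866e-07, 0.0284 and 0.00299 in edgeR's quasi-likelihood test. The other epithelial markers listed were low. EPCAM had group means of 0.203 to 0.452 CPM and 0 counts in some parental libraries, and CDH1, which encodes E-cadherin, had a mean of 3.63 CPM in UT_LCL and 1.58 CPM in PGCC_LCL and fell by 1.18 on the log2 scale (edgeR adjusted p = 0.001317). The prostate markers KLK3 and KLK2 were at 0 in all 24 libraries. Of 4 listed markers of other cell types, the collagen gene COL1A2 and the leukocyte gene PTPRC passed the count filter and both were higher in PGCC_LCL than in UT_LCL, by 0.92 and 1.25 on the log2 scale (edgeR's quasi-likelihood test, adjusted p = 0.0108 and 0.0109). The summed level of the 4 markers ranged from 43.9 to 110.0 CPM in UT_LCL and from 73.4 to 182.7 CPM in PGCC_LCL. The endothelial gene CDH5 and the pericyte gene PDGFRB had at most 8 counts in a library. Their part in the histone results was not tested.

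Histones package DNA into nucleosomes, each wrapped around a core of H2A, H2B, H3 and H4, with H1 bound to the linker. In dividing cells most of their mRNA is made in S phase, when new DNA must be packaged. These mRNAs normally end without a poly(A) tail, in a short stem-loop that is bound by SLBP (stem-loop binding protein), and they are degraded when DNA synthesis stops. Some of the genes are also known to give longer, polyadenylated transcripts, among them HIST1H1C, HIST1H2AC, HIST1H2BC, HIST1H2BD, HIST1H2BJ, HIST1H2BK, HIST2H2BE and HIST4H4. The study's library scheme draws an enrichment of mRNA on a polyadenylated transcript, so a level given here is no measure of the form without a tail. In bulk RNA, a change in the share of cells in S phase and a change in RNA per cell cannot be told apart.

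The stem-loop was looked for in the GENCODE v29 transcripts (GRCh38), where 69 of the 70 members were found, 35 by Ensembl identifier and 34 by symbol. The letters of the histone stem-loop, 16 bases on the transcript strand with some positions left free, were present in a transcript of 31 members and of 0.114% of all 58721 GENCODE genes. In 23 of the 31 a transcript ran on for more than 100 bases after it. A missing match says only that these letters are not in the listed transcripts. The sequences below, printed 5′ to 3′ with the stem-loop in capitals, are shown because a listed transcript of each gene runs on past this end.
HIST1H2BC: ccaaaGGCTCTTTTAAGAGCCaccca
HIST2H2BE: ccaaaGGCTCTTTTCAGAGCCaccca
HIST1H2AC: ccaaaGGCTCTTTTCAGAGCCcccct
HIST3H2A: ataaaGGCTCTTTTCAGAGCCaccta
HIST1H3E: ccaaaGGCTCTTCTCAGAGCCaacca
HIST4H4: caaaaGGCCCTTTTCAGGGCCcccaa
These transcripts continued for 116 bases in HIST1H2BC, 1729 in HIST2H2BE, 1128 in HIST1H2AC, 390 in HIST3H2A, 1862 in HIST1H3E and 1510 in HIST4H4. The 16 capital letters were the same in 16 of the 31 members.

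Summed over the 70 members, histone transcripts were about 3 times as abundant in PGCC as in parental cells, with or without LCL521. The sum was lowest at 148.7, median 173.8 and highest 259.1 CPM in UT, and 143.5, 181.3 and 248.5 CPM in UT_LCL. It was 455.3, 569.6 and 600.9 CPM in PGCC, and 447.9, 544.7 and 602.6 CPM in PGCC_LCL. No PGCC library overlapped a parental library, and the 2 conditions with LCL521 lay within the range of their counterparts or close to it. The ratio of means was 2.91 for PGCC to UT and 2.86 for PGCC_LCL to UT_LCL. In replicates 4 and 5 the mean parental sum was higher, at 217.4 CPM in UT_LCL against 169.3 CPM in the others. The ratio of PGCC_LCL to UT_LCL was 2.31 within replicates 4 and 5 and 3.22 within replicates 1, 2, 3 and 6.

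**Figure D1:**
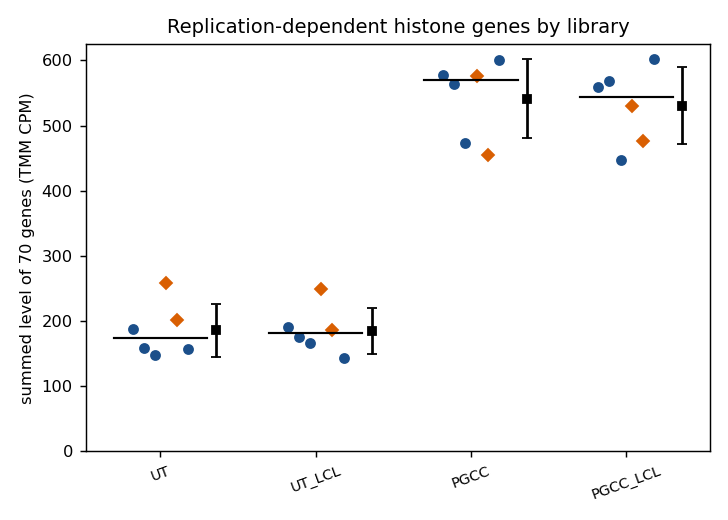
Summed level of the 70 members in each library, in TMM-scaled CPM, by condition. Circles are replicates 1, 2, 3 and 6, diamonds replicates 4 and 5, lines the medians, and squares with bars the mean ± SD of 6 libraries. The 12 PGCC libraries sit at 447.9 CPM or above and the 12 parental libraries at 259.1 CPM or below.

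More members were also detected in PGCC at a like depth, as were more genes in all. At least 1 count was found for 34 to 42 members in a UT library, 36 to 44 in UT_LCL, 44 to 54 in PGCC and 51 to 55 in PGCC_LCL. Over all genes, a library of the same conditions held counts of 18890 to 19761, 18770 to 20205, 21034 to 22709 and 21465 to 22324 genes. Over the 6 libraries of a condition, 23 members were at 0 in UT, 18 in UT_LCL, 11 in PGCC and 8 in PGCC_LCL. The 7 members at 0 in all 24 libraries were HIST1H1B, HIST1H2AA, HIST1H2AL, HIST1H2BA, HIST1H2BI, HIST1H4F and HIST1H4L. A further 6 members had 1 to 3 counts in all libraries together.

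The family total was carried by few genes. The 5 members with the highest mean level, HIST1H2BK, HIST1H2AC, HIST2H2BE, HIST1H1C and HIST3H2A, held 83.4% ± 2.22 (SD, n = 6) of the sum in UT_LCL and 68.2% ± 0.708 (SD, n = 6) in PGCC_LCL. The H2B gene HIST1H2BK alone held 44.9% ± 7.28 (SD, n = 6) in UT_LCL and 28.5% ± 0.909 (SD, n = 6) in PGCC_LCL. The share of HIST2H2BE went the other way, from 4.6% ± 0.911 (SD, n = 6) to 16.2% ± 0.916 (SD, n = 6). HIST1H2BC went from 1.2% ± 0.195 (SD, n = 6) to 6.97% ± 0.214 (SD, n = 6). By histone, H2B held 55.8% ± 6.11 (SD, n = 6) of the sum in UT_LCL and 62.4% ± 0.604 (SD, n = 6) in PGCC_LCL, and H1 held 8.2% ± 1.08 (SD, n = 6) and 4.85% ± 0.494 (SD, n = 6).

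**Figure D2:**
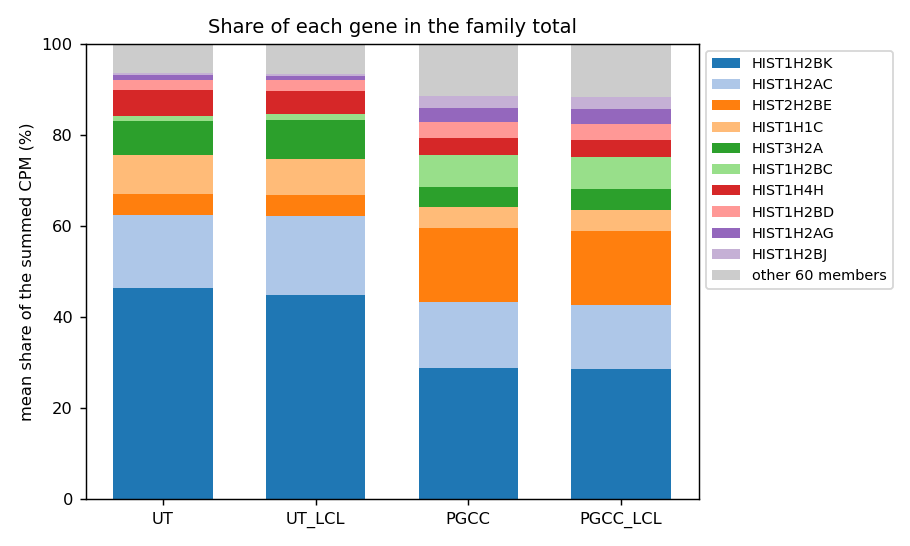
Mean share of each of the 10 members with the highest level in the summed CPM of the 70 members, in percent, by condition (mean of 6 libraries). HIST1H2BK fills 46.3% of the bar in UT and 28.9% in PGCC, while HIST2H2BE grows from 4.64% to 16.1%.

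Per length of the gene model, HIST1H2BK was the most abundant member in every condition, with a mean of 99.2 CPM per kb in UT_LCL and 183.9 CPM per kb in PGCC_LCL. In UT_LCL it was followed by HIST3H2A at 33.2 and HIST1H1C at 20.4 CPM per kb. In PGCC_LCL the next places were held by HIST1H2BC at 55.97 and HIST3H2A at 50.5 CPM per kb. HIST1H2BC had ranked far lower in UT_LCL, at 3.44 CPM per kb.

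The question of how PGCC differ from parental cells was tested in the LCL521 libraries, which are separate from those that led to the choice of the genes but come from the same 6 rounds. Of the 70 members, 28 passed the filter on low counts in PGCC_LCL against UT_LCL. Of these, 25 rose in PGCC_LCL and none fell (edgeR's quasi-likelihood test, Benjamini-Hochberg adjusted over all genes). Among all 13818 genes tested, 25.0% rose and 23.9% fell. Of the 28, 13 passed the filter only because of their level in PGCC_LCL, and such genes had to differ. Of the 15 members that also passed it in parental cells alone, 12 rose, where 22.7% of all genes that did so rose. Without a filter, 63 members were tested and 39 rose, against 15.4% of all genes with at least 1 count. Without replicates 4 and 5, 26 of 28 rose, and with the replicate number as a block 26 of 28. In these fits 3872 of 13891 and 4070 of 13818 genes rose. Both counts of members again include those that passed only through PGCC_LCL.

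**Figure D3:**
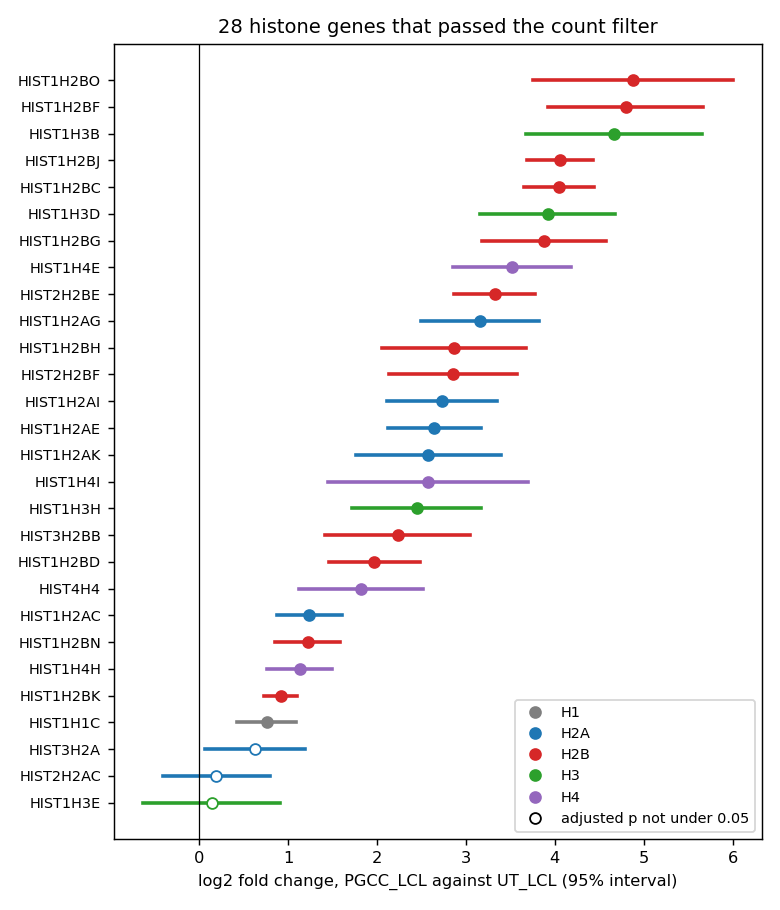
Log2 fold change of PGCC_LCL against UT_LCL for the 28 members that passed the count filter, with 95% intervals, coloured by histone. Filled points have an adjusted p under 0.05. The estimates run from 0.14 for HIST1H3E to 4.88 for HIST1H2BO.

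Of the 18 H2B genes 12 were tested, and 6 of them, HIST1H2BC, HIST1H2BD, HIST1H2BJ, HIST1H2BK, HIST1H2BN and HIST2H2BE, also passed the filter in parental cells. These 6 rose, by 0.92 to 4.06 on the log2 scale. The other 6 passed only through PGCC_LCL and are described by their values, with no p. HIST1H2BC lies on chromosome 6, bases 26115101 to 26124154 of the minus strand, and its model of 659 bases is interrupted by an intron. Its level was lowest at 1.32, median 2.26 and highest 3.43 CPM in UT_LCL and 32.9, 37.4 and 41.3 CPM in PGCC_LCL. The groups were far apart, with a rise of 4.05 ± 0.18 (SE) on the log2 scale, or 16.5-fold (95% interval 12.6 to 21.7, edgeR adjusted p = 1.553e-09). HIST1H2BJ, 27094058 to 27100541 of the same chromosome and strand, rose by a like amount from a lower level. It stood at 0.546, 0.923 and 1.18 CPM in UT_LCL and 12.3, 14.2 and 15.9 CPM in PGCC_LCL, with a rise of 4.06 ± 0.17 (SE; edgeR adjusted p = 1.182e-09).

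HIST2H2BE, on chromosome 1, bases 149856010 to 149858232, minus strand, has a model of 2223 bases without an intron. Its level was lowest at 5.69, median 8.21 and highest 14.3 CPM in UT_LCL and 66.8, 89.5 and 101.4 CPM in PGCC_LCL. The groups did not overlap, and the rise was 3.32 ± 0.21 (SE), or 10.0-fold (95% interval 7.32 to 13.7, edgeR adjusted p = 3.086e-08). HIST1H2BG, at 0.295, 0.361 and 1.10 CPM in UT_LCL and 4.08, 6.99 and 9.55 CPM in PGCC_LCL, passed only through PGCC_LCL and had an estimate of 3.88 ± 0.33 (SE). HIST1H2BD, at 2.79, 3.99 and 9.12 CPM in UT_LCL and 13.9, 19.4 and 21.1 CPM in PGCC_LCL, rose by 1.97 ± 0.24 (SE; edgeR adjusted p = 1.371e-05). In both genes every PGCC_LCL library lay above every UT_LCL library, and replicate 4 was the highest of the parental libraries.

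HIST1H2BK, the most abundant member, moved least among the H2B genes. It spans bases 27106073 to 27114619 of chromosome 6, and its model of 820 bases holds an intron. The level was lowest at 69.5, median 82.2 and highest 91.97 CPM in UT_LCL and 131.9, 151.2 and 168.8 CPM in PGCC_LCL. Again the groups did not overlap. The rise was 0.92 ± 0.09 (SE), or 1.89-fold (95% interval 1.66 to 2.15, edgeR adjusted p = 1.153e-06), the smallest estimate of the 12 H2B genes. HIST1H2BN was similar, at 1.64, 2.37 and 2.58 CPM in UT_LCL and 4.15, 5.04 and 6.49 CPM in PGCC_LCL, a rise of 1.22 ± 0.17 (SE; edgeR adjusted p = 4.51e-05).

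The largest estimates belonged to genes that were almost silent in parental cells. HIST1H2BO had 3 counts in all 6 UT_LCL libraries together and 112 in PGCC_LCL, a ratio of 37.6 with a 95% counting interval of 12.5 to 185.0 (exact). HIST1H2BF was at 0.0, 0.122 and 0.354 CPM in UT_LCL and 3.12, 3.81 and 6.61 CPM in PGCC_LCL, with an estimate of 4.80 ± 0.41 (SE). The H3 gene HIST1H3B was at 0.0, 0.0295 and 0.122 CPM in UT_LCL and 0.89, 1.11 and 1.47 CPM in PGCC_LCL, with an estimate of 4.67 ± 0.46 (SE). All 3 passed the filter only through PGCC_LCL, so these values are a description.

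Of the 17 H2A genes 7 were tested and 5 of these also passed the filter in parental cells, of which 3 rose and 2 did not pass the test. HIST1H2AC, bases 26124373 to 26139344 of chromosome 6, plus strand, was the second most abundant member. Its level was lowest at 20.3, median 29.9 and highest 50.9 CPM in UT_LCL and 64.0, 79.4 and 83.3 CPM in PGCC_LCL. The groups did not overlap, although replicate 4 stood well above the other parental libraries. The rise was 1.24 ± 0.17 (SE; edgeR adjusted p = 4.41e-05). HIST1H2AG, at 0.944, 1.61 and 4.42 CPM in UT_LCL and 14.2, 16.7 and 21.5 CPM in PGCC_LCL, rose by 3.16 ± 0.31 (SE; edgeR adjusted p = 1.836e-06). HIST1H2AE rose by 2.65 (edgeR adjusted p = 1.069e-06), and HIST1H2AI and HIST1H2AK, which passed only through PGCC_LCL, had estimates of 2.73 and 2.58.

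HIST3H2A, on chromosome 1, bases 228645065 to 228645560, minus strand, depended on the replicates. In UT_LCL its level was lowest at 8.16, median 12.95 and highest 27.9 CPM, and in PGCC_LCL 19.9, 25.9 and 28.3 CPM. The groups overlapped, because replicates 4 and 5 of the parental cells were as high as PGCC_LCL. Their mean was 26.8 CPM in UT_LCL and 25.9 CPM in PGCC_LCL, against 11.3 and 24.6 CPM in the other replicates. The log2 fold change was 0.63 ± 0.26 (SE) with an adjusted p of 0.0627 in edgeR's quasi-likelihood test. With the replicate block it was 0.75 with an adjusted p of 0.0231, and without replicates 4 and 5 it was 1.16 with an adjusted p of 9.264e-05. What sets replicates 4 and 5 apart was not tested.

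HIST2H2AC, at 149858525 to 149858961 on the plus strand of chromosome 1, did not pass the test. Its level was 0.46, 0.517 and 0.98 CPM in UT_LCL and 0.471, 0.657 and 1.06 CPM in PGCC_LCL. The ranges overlapped almost fully, and the log2 fold change of 0.19 had a 95% interval of -0.41 to 0.80, which leaves out the rise of most other members. The same was found for the H3 gene HIST1H3E, at 0.692, 1.31 and 3.78 CPM in UT_LCL and 1.25, 1.70 and 2.60 CPM in PGCC_LCL, with a log2 fold change of 0.14 and a 95% interval of -0.63 to 0.91. Its 2 highest libraries of UT_LCL were again replicates 4 and 5, with a mean of 2.81 CPM against 1.12 CPM in the others. Both estimates stayed short of the threshold without these replicates, at 0.39 for HIST2H2AC and 0.61 for HIST1H3E (adjusted p = 0.39 and 0.13 in edgeR).

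**Figure D4:**
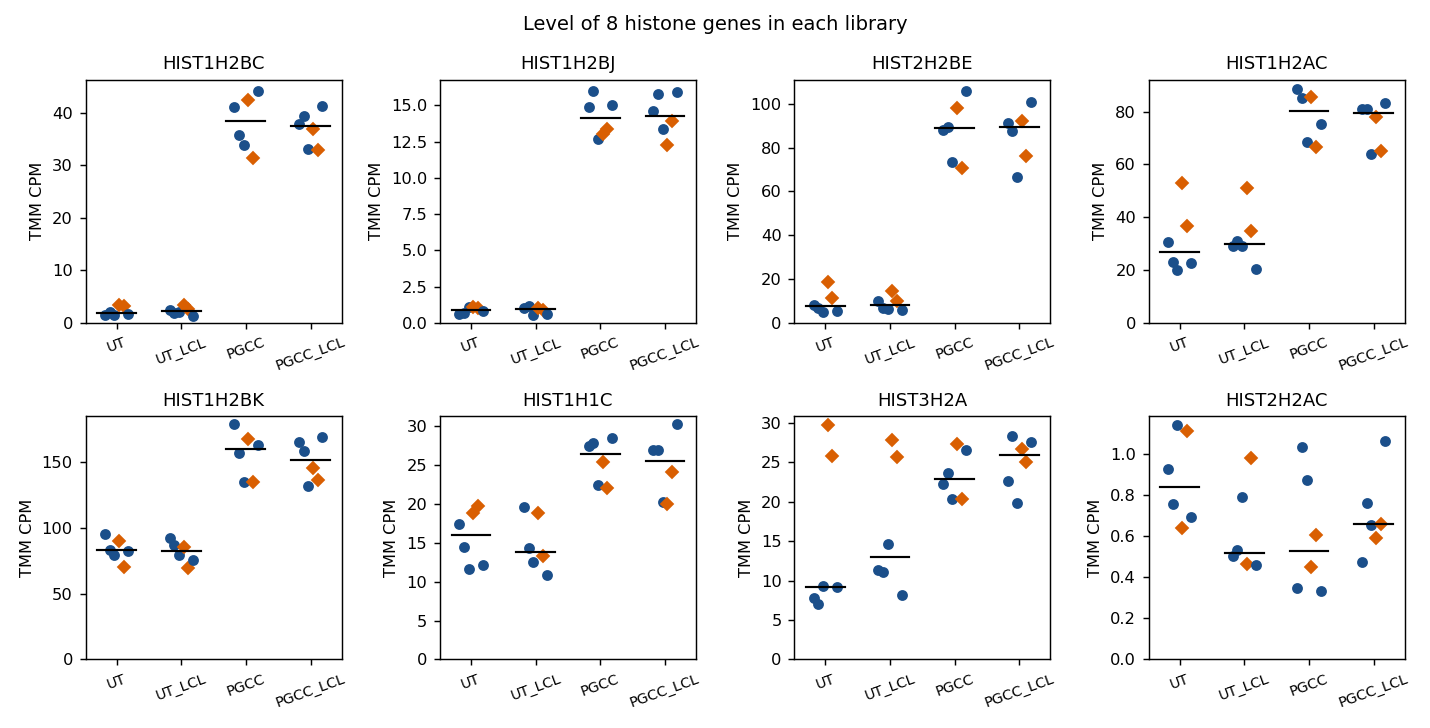
TMM-scaled CPM of 8 members in each of the 24 libraries, by condition, with linear axes from 0. Circles are replicates 1, 2, 3 and 6, diamonds replicates 4 and 5, and lines the medians. HIST1H2BC, HIST1H2BJ and HIST2H2BE separate widely, HIST1H2BK, HIST1H2AC and HIST1H1C by less, and for HIST3H2A the parental diamonds lie among the PGCC points.

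Of the 14 H3 genes 4 were tested, and HIST1H3E and HIST1H3H also passed the filter in parental cells. HIST1H3H rose by 2.45 (edgeR adjusted p = 4.262e-05), and HIST1H3B and HIST1H3D, which passed only through PGCC_LCL, had estimates of 4.67 and 3.92. Of the 15 H4 genes 4 were tested, and only HIST1H4H also passed in parental cells. HIST1H4H was at 6.09, 8.93 and 13.7 CPM in UT_LCL and 15.8, 20.2 and 23.8 CPM in PGCC_LCL, a rise of 1.13 ± 0.17 (SE; edgeR adjusted p = 9.101e-05). HIST4H4, the lone member on chromosome 12, was at 0.236, 0.529 and 1.05 CPM in UT_LCL and 1.62, 2.25 and 2.73 CPM in PGCC_LCL with an estimate of 1.82 ± 0.32 (SE). It passed only through PGCC_LCL, as did HIST1H4E and HIST1H4I, with estimates of 3.52 and 2.57. Among the 6 linker histone H1 genes only HIST1H1C passed. Its level was 10.9, 13.8 and 19.6 CPM in UT_LCL and 19.95, 25.5 and 30.3 CPM in PGCC_LCL, without overlap, and it rose by 0.76 ± 0.15 (SE; edgeR adjusted p = 9.752e-04), the smallest rise of the members that passed the test.

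A further 35 members had counts in these 12 libraries but did not pass the filter. Together they had 210 counts in UT_LCL and 885 in PGCC_LCL, and 34 of the 35 were higher in PGCC_LCL. Of all 15841 genes below the filter with counts, 77.1% were higher in PGCC_LCL, so a lean in this direction is common to genes of low count. Just outside the filter were HIST1H4K with 35 counts in UT_LCL and 108 in PGCC_LCL and HIST2H3D with 24 and 102. Those just inside were HIST1H2BO and HIST1H3B, with 115 and 127 counts over the 12 libraries. The members HIST1H2AB, HIST1H2AH and HIST1H3J had 0 counts in UT_LCL and 25, 20 and 24 in PGCC_LCL. With a floor of 3 counts over the group in place of 0, the ratios were 8.4, 6.72 and 8.06. These ratios have no interval and leave out the counting error in PGCC_LCL. For HIST1H2AH, 9 of the 20 counts came from 1 library.

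The libraries without LCL521, used in the choice of these genes, are described here without a test. Of the 30 members that passed the filter in PGCC against UT, 24 were over 2-fold higher and none was over 2-fold lower. Of all genes tested, 11.3% and 2.95% were. Only 15 members passed the filter in parental cells alone. Those that passed here only through their level in PGCC had to be higher, so the 24 cannot be set against the share of all genes. HIST1H2BC was at 1.50, 1.88 and 3.31 CPM in UT and 31.4, 38.3 and 44.1 CPM in PGCC, a 17.3-fold difference. HIST2H2BE was at 4.81, 7.45 and 18.5 CPM in UT and 70.8, 88.8 and 106.2 CPM in PGCC, a 9.65-fold difference. HIST1H2BK differed by 1.89-fold and HIST1H1C by 1.64-fold. HIST2H2AC was at 0.638, 0.84 and 1.14 CPM in UT and 0.334, 0.528 and 1.03 CPM in PGCC, on the lower side. HIST1H4D and HIST1H3F had 0 counts in UT and 47 and 22 in PGCC. With a floor of 3 counts in place of 0, the ratios were 15.8 and 7.39, with no interval. Over the 28 members that passed in both contrasts, the log2 fold changes had a Pearson correlation of 0.946 and a median gap of 0.18. The contrasts share no library but come from the same rounds. Of the 28, 13 passed only through PGCC_LCL and had to be high there. No correlation over all genes was computed, so the value is a description and no separate test of the rises.

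No change of a member by LCL521 was detected. In parental cells 15 members passed the filter and 0 passed the test, as did 0.0% of 13277 genes, with 71 genes at an unadjusted p under 0.05 in edgeR. The lowest estimate was that of HIST2H2AC, at a log2 fold change of -0.49 (95% interval -1.05 to 0.08), and that of HIST1H2BK was -0.03 (95% interval -0.22 to 0.16). In PGCC 32 members passed and 0 passed the test, where 0.00707% of all genes did, with 218 genes at an unadjusted p under 0.05. The highest estimate was that of HIST1H3E, at 0.49 (95% interval -0.03 to 1.01), and HIST1H2BC was at -0.04 (95% interval -0.25 to 0.16). These intervals do not use the pairing. With the replicate block 0.866% of genes in parental cells and 1.65% in PGCC passed, and still 0 members. In that edgeR fit HIST2H2AC in parental cells had an unadjusted p of 0.0452 (adjusted p = 0.393). In PGCC, HIST1H3E had 0.0157 (adjusted p = 0.215) and HIST3H2BB 0.0461 (adjusted p = 0.336). Of all genes, 1648 in parental cells and 2030 in PGCC had an unadjusted p under 0.05 there. DESeq2 and limma-voom called 0 members in either contrast. The difference between the responses of PGCC and parental cells to LCL521 was tested as an interaction on all 24 libraries, and 0 of 32 members passed, as did 0.0% of 14555 genes, with 60 genes at an unadjusted p under 0.05. HIST2H2AA3 and HIST1H2BF had an unadjusted p of 0.0157 and 0.0377, and both had an adjusted p of 1.0 in edgeR.

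The H2A and H2B genes often lie head to head, and partners of such a pair could have quite different estimates. Among the members, 14 pairs lie within 1 kb of each other and are read in opposite directions, and in 7 of them both partners passed the filter in PGCC_LCL against UT_LCL. HIST1H2BC and HIST1H2AC are separated by 218 bases, and their log2 fold changes were 4.05 and 1.24. HIST2H2BE and HIST2H2AC are separated by 292 bases, and theirs were 3.32 and 0.19. HIST1H2BK differed by 0.92, while its partner HIST1H2AH, 241 bases away, had almost no reads in either condition, with means of 0.0 and 0.193 CPM. The partners HIST1H2BJ and HIST1H2AG were closer to each other, at 4.06 and 3.16. In 5 of the 6 pairs of an H2A with an H2B gene the H2B gene had the higher estimate. The exception was HIST1H2BN, at 1.22 beside HIST1H2AK at 2.58. In these pairs HIST1H2BG, HIST3H2BB and HIST1H2AK passed the filter only through PGCC_LCL and had to be high. The count of pairs is thus a description. The differences between partners were not tested.

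**Figure D5:**
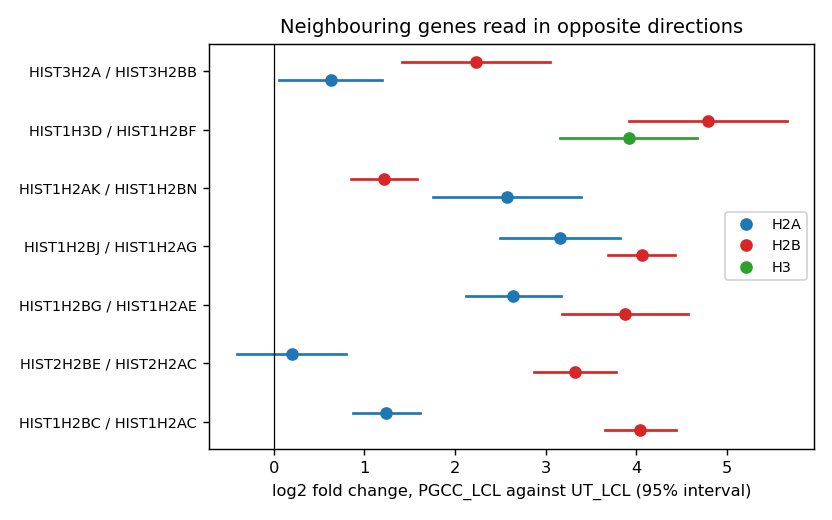
Log2 fold change of PGCC_LCL against UT_LCL with 95% intervals for both partners of the 7 head-to-head pairs in which each passed the filter, coloured by histone. HIST2H2BE lies at 3.32 while HIST2H2AC, 292 bases away, lies at 0.19 with an interval across 0.

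The promoters of the H2B genes are known for an octamer, ATTTGCAT, near a TATA box, and the octamer is bound by POU2F1. The RefSeq promoter table (GRCh38.p14) held 60 of the 70 members. The octamer, on either strand of the 250 bases before the start, was present in 21 of them (35.0%), in 69.2% of the H2B and 68.8% of the H2A promoters, and in 2.03% of all 27305 genes with a promoter. CCAAT, which needs only 5 letters, was present in 83.3% of the members and 37.0% of all genes, and TATAAA in 68.3% and 13.0%. Neighbours that lie head to head share part of these windows. The 150 bases before the start are printed for 3 H2B genes that differed in their rise and for HIST2H2AC, which shares its upstream region with HIST2H2BE. Capitals mark ATTTGCAT, CCAAT and TATAAA on either strand, so that ATTGG is a CCAAT read backwards.
HIST1H2BJ, chr6:27132796-27132945, minus strand: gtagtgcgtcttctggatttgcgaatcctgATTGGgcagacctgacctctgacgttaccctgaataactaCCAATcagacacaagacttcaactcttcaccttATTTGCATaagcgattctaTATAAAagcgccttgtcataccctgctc
HIST2H2BE, chr1:149886683-149886832, minus strand: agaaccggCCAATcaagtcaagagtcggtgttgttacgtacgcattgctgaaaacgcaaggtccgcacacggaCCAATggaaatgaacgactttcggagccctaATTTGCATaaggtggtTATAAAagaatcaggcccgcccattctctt
HIST1H2BK, chr6:27146859-27147008, minus strand: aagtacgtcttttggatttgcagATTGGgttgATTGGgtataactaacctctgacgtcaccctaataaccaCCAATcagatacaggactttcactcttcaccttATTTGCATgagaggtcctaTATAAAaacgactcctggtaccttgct
HIST2H2AC, chr1:149886768-149886917, plus strand: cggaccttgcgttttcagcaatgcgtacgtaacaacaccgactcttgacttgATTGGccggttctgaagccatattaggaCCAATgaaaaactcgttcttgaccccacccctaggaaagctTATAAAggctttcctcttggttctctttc
The octamer began 47 bases before the start in HIST1H2BJ and 46 before it in HIST2H2BE and HIST1H2BK, and these genes rose by 4.06, 3.32 and 0.92. In the stretch of HIST2H2AC it was not found, while TATAAA stood 29 bases before the start. Its longer window of 250 bases reaches into the promoter of HIST2H2BE and counts among those with an octamer. Of the 21 members with an octamer, 11 passed the filter, with estimates from 0.19 to 4.88, and of the 39 without, 14 passed, with estimates from 0.14 to 4.67.

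The gene models also set members apart. Of the 70, 20 have a model over 1000 bases or with an intron, and these held 79.3% of the summed level in UT_LCL and 83.6% in PGCC_LCL. The 8 genes known to give polyadenylated transcripts held 79.2% and 77.0%. Of these 8, 7 passed the filter in parental cells and all 7 rose, as did 5 of the 8 other members that passed there, where 22.7% of all such genes rose. The summed level of the 8 was 146.0 CPM in UT_LCL and 408.5 CPM in PGCC_LCL, and that of the 62 members outside the list 39.4 and 122.2 CPM.

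Of the other listed RNAs that carry no poly(A) tail, 2 passed the filter, 1 of them only through PGCC_LCL. RN7SL1, the RNA of the signal recognition particle, was at 97.7, 177.0 and 265.6 CPM in UT_LCL and 71.8, 175.0 and 210.0 CPM in PGCC_LCL, with a log2 fold change of -0.11 (edgeR adjusted p = 0.747). RPPH1, the RNA of ribonuclease P, was at 0.118, 0.448 and 1.09 CPM in UT_LCL and 0.708, 1.03 and 1.52 CPM in PGCC_LCL. It passed the filter only through PGCC_LCL, with 2 to 18 counts in a UT_LCL library. Its log2 estimate of 1.14 is thus a description, with no p. Without RN7SL1, the 6 listed RNAs of this kind summed to 0.707 to 1.76 CPM in UT_LCL and 1.26 to 2.78 CPM in PGCC_LCL. The part of RNA without a tail in the histone results was not tested.

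Genes whose proteins act on histone genes, histone mRNA and histones were counted in PGCC_LCL against UT_LCL. The counts are to be read against the 25.0% of all 13818 genes that rose and the 23.9% that fell, and the medians against a median log2 fold change of -0.01 over all genes. Of 8 genes for histone gene transcription, 1 rose and 2 fell, with a median of -0.21. Without replicates 4 and 5, 1 rose and 4 fell, where 3872 of all 13891 genes tested rose and 3418 fell. CDK2, the kinase that activates NPAT with cyclin E, rose by 1.35 (edgeR adjusted p = 6.622e-05), CCNE1, a cyclin E, fell by 1.97 (adjusted p = 0.0015), and COIL, the coilin of Cajal bodies, fell by 0.45 (adjusted p = 5.105e-04). NPAT, the coactivator of histone genes, was at -0.11 and POU2F1 at -0.26, and neither passed the test. Of 11 genes for 3′ end processing none rose and 3 fell, with a median of 0.01. Without replicates 4 and 5, none rose and 4 fell. SLBP was at 0.18 (edgeR adjusted p = 0.428), with libraries from 82.6 to 181.7 CPM in UT_LCL and 138.2 to 175.6 CPM in PGCC_LCL. With all replicates, the genes that fell were LSM10, a subunit of the U7 particle, by 0.51, CPSF2 by 0.34 and NCBP2, a cap-binding subunit, by 0.21.

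Of 8 genes for histone mRNA decay 3 rose and none fell, with a median of 0.23. Without replicates 4 and 5, 2 rose and none fell. ERI1, the exonuclease that trims the stem-loop, rose by 0.90 (edgeR adjusted p = 1.236e-05), the helicase UPF1 by 0.33 and the decapping enzyme DCP2 by 0.27. Of 14 histone chaperones and partners 7 rose and 3 fell, with a median of 0.28. These counts were the same without replicates 4 and 5. ASF1B, a chaperone of H3 and H4, rose by 2.30 (edgeR adjusted p = 4.21e-07), and CHAF1A and CHAF1B of the chromatin assembly factor and NASP rose by 0.98, 1.10 and 1.02. Its paralog ASF1A fell by 0.46, and SSRP1 and NAP1L1 by 0.33 and 0.21, the last with an adjusted p of 0.0586 under the replicate block. Of 18 replication fork genes 14 rose and 1 fell, with a median of 0.96. CDC45 and GINS4, both of the replicative helicase, rose by 2.70 and 2.27, MCM6 fell by 0.40, and PCNA, the sliding clamp, did not pass the test at 0.38 (edgeR adjusted p = 0.396). PCNA ranged from 30.2 to 183.9 CPM in UT_LCL and from 113.8 to 174.9 CPM in PGCC_LCL. With the replicate block 16 of the 18 replication fork genes rose. Of these genes, 15 rose and 1 fell without replicates 4 and 5. These lists were chosen with results of these data known.

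Some members share reads with near copies or with overlapping genes, and the strand setting of the counting is not given in the sources used here. Of 69 members with a GENCODE transcript, 55 had at least 50% of their windows of 50 bases in no other gene. HIST1H3D, HIST1H4K, HIST2H2AA4, HIST2H3A and HIST2H3C had none, so their counts are uncertain. HIST1H2BK had 25.9%, with 204 of its 332 windows also in H2BFS, which had 47 counts in all 24 libraries. HIST1H4I lies within the span of HIST1H2BK on the other strand, and 13 members overlap another listed gene.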

How the data were processed

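The authors deposited whole read counts per gene for 24 libraries, not normalized, with gene coordinates and lengths. No other unit was used. Per the labels, the submitters' processing notes name CASAVA, STAR, HTSeq, DESeq2 and the build hg19. The strand setting and the annotation release are not given in the sources used here. Groups and replicate numbers came from the sample titles. The members and lists were chosen with earlier results of these data known. Members named in the text were the 12 with the highest mean level, the 3 highest and 3 lowest log2 fold changes in PGCC_LCL against UT_LCL, the 8 known for polyadenylated transcripts, and those at the edge of the filter. Other genes named singly were chosen after their values were seen. Some marker genes of the lists are not reported here.

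Counts were analysed with edgeR 4.0.16 (R 4.3.3, limma 3.58.1): filterByExpr (minimum count 10, minimum total 15), TMM scaling, and the quasi-likelihood test on the 12 libraries of a contrast, or on all 24 for the interaction, with a Benjamini-Hochberg threshold of 0.05 over all genes. Levels are CPM with TMM factors over all 24 libraries. Intervals are at the 95% level. The alternatives were DESeq2 1.42.0, limma-voom, other scalings, filters, a gene length correction, a replicate block and replicates left out. Replicate numbers pair the libraries, because all conditions of a round were harvested together, and same-numbered libraries deviated from their group means with correlations of at least 0.171 in every contrast. The procedure was tested on simulated data. Libraries held 14835246 to 19906601 counts, which limits the precision for genes near 3 counts. Unless the replicate block is named, the fits did not use the pairing. Their p-values measure the spread among libraries within a condition, from 6 rounds of 1 cell line.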

Additional observations from a re-analysis of the deposited data

Results flagged for a closer look

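Of 76 groups of 6 libraries examined for a library far from the rest (Dixon's test, critical value 0.625), 6 had one. The chance rate of about 1 in 20 holds for independent groups. These groups share libraries, so the count of 6 is a description. All 6 were parental, 5 of them in replicate 4 and 1 in replicate 5. HIST1H2BD was at 7.77 CPM in UT replicate 4, with the others between 3.05 and 4.12 CPM, and at 9.12 CPM in UT_LCL replicate 4, with the others between 2.79 and 4.60 CPM. In UT_LCL replicate 4, HIST1H2AG was at 4.42 CPM (others 0.944 to 2.02 CPM), HIST1H2BG at 1.10 CPM (others 0.295 to 0.49 CPM) and HIST1H3E at 3.78 CPM (others 0.692 to 1.84 CPM). HIST1H2BF was at 0.175 CPM in UT replicate 5, with the others at most at 0.058 CPM, a level that rests on 3 counts.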

How the results depend on the processing

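The count of 25 members that rose in PGCC_LCL against UT_LCL became 39 of 63 tested with no filter. It became 10 of 12 with at least 10 counts required in every library. Of all genes, 4571 of 29659 and 2970 of 12149 rose. The 24 members over 2-fold higher in PGCC against UT became 47 and 7 under these filters. Of all genes, 9864 of 29759 and 923 of 12106 were over 2-fold higher. Under these filters the number of members tested in PGCC against UT is not given. Their share is thus not set against that of all genes. Leaving out each replicate gave 25 to 27 and 23 to 24, and the replicate block 26 and 24. These counts include members that passed the filter only through PGCC_LCL or PGCC. Of all genes, 2983 of 13823 (without replicate 3) to 3314 of 13827 (without replicate 4) rose. From 1539 of 13891 (without replicate 1) to 1616 of 13809 (without replicate 4) were over 2-fold higher. With the block, 4070 of 13818 genes rose and 1627 of 13812 were over 2-fold higher. HIST3H2A passed the test in PGCC_LCL against UT_LCL under 8 of 18 alternatives, the block among them, with estimates from 0.45 to 1.17. The pairing changed no other member's call. Reversed estimates were those of HIST1H3E in PGCC_LCL against UT_LCL (-0.0152 with the length correction, and -0.0395 to 0.4386 over the replicates left out, negative without replicate 2) and in PGCC against UT (0.0656 in limma-voom, 0.30 without replicates 4 and 5, 0.35 without them and with the block), and of HIST2H2AC in PGCC_LCL against UT_LCL (-0.0479 to 0.3847 over the replicates left out, negative without replicate 6). The cause was not tested. No LCL521 contrast or interaction called a member under any alternative. Depth limits the members that did not pass the filter, for which counts are given in place of a test.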
